A study of Homo sapiens with 12 samples.

Results

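Dimethyl amiloride (DMA) and C646, inhibitors given to the same cells during refeeding, were compared with each other. All genes of the deposited tables were eligible, with no selection by level, direction or function. Of 43481 genes, 15263 held enough counts to be tested between the 3 DMA libraries and the 3 C646 libraries, which are 6 of the 12 libraries of the series. The cells are RPE-1, an established human line derived from retinal pigment epithelium, whose polyadenylated RNA was sequenced. Both groups, like the solvent group, were first deprived of both glucose and fetal calf serum (FCS) for 24 h and then given 10% FCS and 5 g/l glucose for 4 h. One received 100 µM DMA, the other 10 µM C646, and the solvent group received DMSO only; the starved group was never refed. The doses of the inhibitors differ, 1 dose of each was used, and the compounds are not analogs, so every difference below is between these treatments as given.

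DMA, an amiloride derivative, blocks Na+/H+ exchangers, the membrane proteins that export protons and raise intracellular pH when growth factors act on a cell. C646 inhibits p300 and CBP, acetyltransferases that modify histones and many transcription factors. Several gene programmes that respond to cell state within hours meet here. The factor NRF2, held down by KEAP1, drives genes for glutathione synthesis and the removal of oxidants. Heat shock factor drives chaperone genes when proteins misfold. The ERK kinase cascade, which serum switches on, induces its own inhibitors, such as the Sprouty proteins and the DUSP phosphatases.

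The DMA libraries held 20262061 to 22011436 expected counts and the C646 libraries 21929453 to 24784194, so depth was similar. Transcripts encoded by mitochondrial DNA took 1.67% to 2.38% and 2.12% to 2.34% of them. Of 15 markers of pigment epithelium 7 stayed under 1 TPM in all 6 libraries, among them RPE65 (at most 0.043 TPM), while others were present, such as RDH5 (14.5 to 35.7 TPM), OTX2 (8.63 to 16 TPM), MITF (6.28 to 12.6 TPM) and the keratin KRT18 (421 to 756 TPM). All 7 markers of other keratin epithelia, 7 of 8 blood markers and 5 of 6 endothelial markers stayed under 1 TPM, but of 9 mesenchymal markers 2 did, and VIM held 3359 to 4490 TPM and FN1 1389 to 2445 TPM. One of the 9, the collagen gene COL1A1, was called higher with C646 (1.51 ± 0.415 and 6.94 ± 3.77 CPM, -2.20, adjusted p = 0.039), a call lost without 5 of the libraries, up to 0.13 without C646 library 1. In a principal component analysis of the 6 libraries, the first component, with 32.5% of the variance, placed DMA libraries 1 and 2 at -49.0 and -20.0, DMA library 3 at -0.60, and the C646 libraries at 9.42 to 49.4. In bulk RNA, a change in the share of cells of one kind and a change of RNA per cell cannot be told apart. The labels number the libraries but do not say whether they come from separate cultures, so p-values measure the spread between these samples, which may be technical.

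Between the inhibitors 441 of the 15263 genes differed (2.89%, edgeR quasi-likelihood test, adjusted p under 0.05): 144 were higher with DMA (0.943%) and 297 were higher with C646 (1.95%). Antioxidant genes and chaperones were prominent among those higher with C646, and inhibitors of ERK signalling, cytokines and a few mitotic genes among those higher with DMA. The median size of the called differences was 0.90 on the log2 scale, and 185 were at least 2-fold, 48 higher with DMA and 137 higher with C646. In 439 of the 441 the libraries of the 2 groups did not overlap, and all 441 pointed the same way in each of the 3 same-numbered pairs. The 441 were selected by p-values from these same libraries, so this separation was largely fixed by the selection and is no separate support. Where groups do not overlap, the pairs must also point the same way. Of all genes tested, 10.5% lay wholly higher with DMA and 11.1% wholly higher with C646.

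Same-numbered libraries deviated together from their group means. With the number as a block, 1498 genes were called (9.81%), 605 higher with DMA (3.96%) and 893 higher with C646 (5.85%), and 440 of the 441 were among them. Scaling to the spike-in controls left 120 calls, with 44.2% of them higher with DMA against 32.7% before, and moved the median of all genes by 0.094. The count fell to 192 without DMA library 2, 180 without DMA library 3, and 187, 218 and 240 without C646 library 1, 2 and 3. With the block, the corresponding counts were 849 and 499, and 679, 749 and 853.

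**Figure D1:**
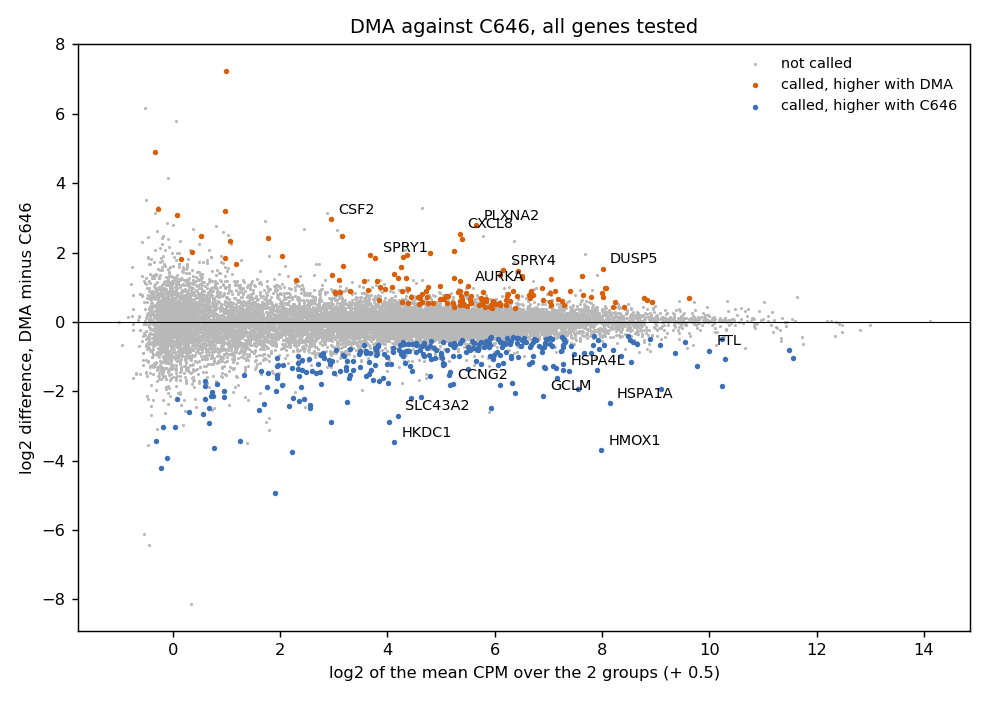
Difference between the inhibitors for every gene tested. The x axis is log2 of the mean CPM over the 6 libraries (+ 0.5), the y axis the log2 difference, DMA minus C646; orange and blue points are the 144 and 297 genes called higher with DMA and with C646, and grey points were not called. HMOX1 and HKDC1 lie lowest among the labelled genes, and CSF2 and PLXNA2 highest.

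The sequences shown here are the 250 bases before the RefSeq start of genes from the chaperone, antioxidant and cytokine groups, on GRCh38.p14, read 5′ to 3′ along the gene's strand. They are shown because these groups differ between the inhibitors, and each window was chosen for holding a match to the motif marked in it. No other motif is marked, and the share of each group with a match is given below. In the first 3, capitals mark the heat shock element searched as GAANNTTC, in the next pair the antioxidant response element searched as TGACNNNGC on either strand, and in CXCL8 the AP-1 site searched as TGANTCA. They cover chr6:31815293-31815542 (plus strand), chr11:90223050-90223299 (minus), chr9:33025023-33025272 (plus), chr1:93909431-93909680 (minus), chr12:104215529-104215778 (plus) and chr4:73740319-73740568 (plus).
HSPA1A: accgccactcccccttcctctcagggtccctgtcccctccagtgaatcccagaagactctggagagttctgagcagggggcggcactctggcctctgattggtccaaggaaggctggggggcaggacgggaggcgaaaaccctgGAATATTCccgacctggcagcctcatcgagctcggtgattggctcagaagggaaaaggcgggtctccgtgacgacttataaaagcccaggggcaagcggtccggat
CHORDC1: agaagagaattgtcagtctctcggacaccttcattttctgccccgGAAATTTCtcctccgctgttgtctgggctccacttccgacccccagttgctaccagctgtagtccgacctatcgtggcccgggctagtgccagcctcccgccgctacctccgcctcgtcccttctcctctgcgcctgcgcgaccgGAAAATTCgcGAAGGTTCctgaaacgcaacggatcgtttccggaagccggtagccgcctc
DNAJA1: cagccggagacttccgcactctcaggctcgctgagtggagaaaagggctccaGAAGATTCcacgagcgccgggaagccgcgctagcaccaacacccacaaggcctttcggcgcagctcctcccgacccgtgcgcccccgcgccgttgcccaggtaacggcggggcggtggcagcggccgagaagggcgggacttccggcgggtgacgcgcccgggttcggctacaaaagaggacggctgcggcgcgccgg
GCLM: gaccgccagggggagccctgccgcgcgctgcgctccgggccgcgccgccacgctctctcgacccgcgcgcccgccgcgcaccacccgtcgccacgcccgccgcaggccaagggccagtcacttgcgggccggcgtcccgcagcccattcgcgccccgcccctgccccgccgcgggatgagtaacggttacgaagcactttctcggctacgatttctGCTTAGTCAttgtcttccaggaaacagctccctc
TXNRD1: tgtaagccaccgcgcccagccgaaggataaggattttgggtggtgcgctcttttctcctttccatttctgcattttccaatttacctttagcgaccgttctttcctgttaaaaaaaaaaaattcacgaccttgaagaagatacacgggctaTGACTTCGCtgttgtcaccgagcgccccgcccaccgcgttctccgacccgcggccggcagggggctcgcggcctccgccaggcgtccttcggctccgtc
CXCL8: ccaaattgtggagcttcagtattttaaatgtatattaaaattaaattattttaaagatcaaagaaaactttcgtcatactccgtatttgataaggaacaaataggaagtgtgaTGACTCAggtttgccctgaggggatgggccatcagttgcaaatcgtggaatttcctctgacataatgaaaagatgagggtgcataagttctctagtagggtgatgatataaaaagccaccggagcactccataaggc
The match begins 106 bases before the start in HSPA1A and 198 in DNAJA1, while CHORDC1 holds 3 matches, beginning 205, 60 and 50 bases before it. In GCLM the element lies on the opposite strand, 34 bases before the start, in TXNRD1 it begins 99 bases before, and in CXCL8 the site begins 137 bases before.

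A window was found for 11353 of the 15263 genes. The heat shock element stood in 6 of the 19 chaperone genes with a window (31.6%), in 7.73% of the genes called higher with C646, in 4.72% of those called higher with DMA and in 4.22% of all. The antioxidant element stood in 41 of 233 genes called higher with C646 (17.6%), in 9.43% of those higher with DMA and in 12.1% of all. It stood in 4 of 20 NRF2 targets. AP-1 sites stood in 3 of 19 cytokine genes (15.8%) against 4.18% of all, and in 2.83% of the genes called higher with DMA. The NF-kappaB site stood in 8 of the same 19 (42.1%) against 11.4% of all, and in 11.3% of the genes called higher with DMA. These are matches of letters in a short window, and the heat shock, antioxidant and NF-kappaB motifs were added to the search after the gene values were seen.

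Antioxidant genes were the group with the most members called. Of 28 NRF2 targets tested, 16 were called higher with C646 (57.1% against 1.95% of all genes) and 0 higher with DMA, where none reached an unadjusted p under 0.05 and DESeq2 also called 0. All 28 fitted differences were negative, with a median of -0.83 against 0.00 for all genes. Of the 28, 23 lay wholly higher with C646 (11.1% of all genes did). The medians of the same-numbered ratios were -1.05, -0.76 and -0.79. Leaving out any 1 of the 6 libraries left 8 to 11 members called, fewest without DMA library 2, with medians of -0.91 to -0.75. With the block 25 were called higher with C646 (5.85% of all genes were). Spike-in scaling kept 8 calls and a median of -0.71.

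HMOX1 (chromosome 22, 35380361 to 35394214, GRCh38), heme oxygenase, which breaks down heme, showed the largest difference among the named genes. DMA libraries 1, 2 and 3 held 23.8, 35.5 and 49.4 CPM of it, and C646 libraries 1, 2 and 3 held 309.7, 269.7 and 825 CPM. The highest DMA library lay far below the lowest C646 library. The log2 difference, DMA minus C646, was -3.69 ± 0.51 (SE, adjusted p = 0.0045), and 26.9 to 44.7 CPM in the solvent libraries put the DMA group beside solvent. In HMOX1, GCLC, GCLM, SLC7A11, GSR, SRXN1 and TXNRD1 library 3 was the highest of both groups.

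Glutathione synthesis followed the same direction. GCLC, the catalytic subunit of its rate-limiting enzyme, measured 13.9, 15.9 and 25.8 CPM with DMA and 63.8, 80.2 and 165 CPM with C646, a difference of -2.47 ± 0.37 (adjusted p = 0.0053). Solvent libraries lay between the groups at 28.0 to 45.3 CPM. GCLM, the modifier subunit of the same enzyme, held 43.2, 41.5 and 47.8 CPM with DMA and 136, 172 and 272 CPM with C646 (-2.13 ± 0.28, adjusted p = 0.0032). All DMA values of GCLM were also below its solvent values of 58.8 to 71.9 CPM, although that difference did not pass (-0.55, adjusted p = 0.29). SLC7A11, the cystine importer that feeds this pathway, measured 77.6 ± 23.6 CPM with DMA (SD, n = 3, as in all such values here) and 297 ± 129 CPM with C646 (-1.93, adjusted p = 0.021). GSR, which regenerates reduced glutathione, measured 70.1 ± 17.3 and 171 ± 37.6 CPM (-1.29, adjusted p = 0.0078).

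Among the redox enzymes, the aldo-keto reductases AKR1C3 and AKR1B10 were higher with C646, by a log2 difference of -1.57 (adjusted p = 0.0043) and -2.40 (adjusted p = 0.0032). AKR1B10 is uncertain because 30.7% of its sequence recurs in other genes. TXNRD1, thioredoxin reductase, was already abundant at 2064 ± 258 CPM with DMA and reached 3649 ± 376 CPM with C646 (-0.82, adjusted p = 0.029). SRXN1, sulfiredoxin, measured 229 ± 77.0 and 871 ± 451 CPM (-1.93, adjusted p = 0.024); another gene overlaps 85.0% of its exons, which makes it uncertain. NQO1, a quinone reductase, differed less, with 419 ± 47.7 and 663 ± 131 CPM (-0.66, adjusted p = 0.032). The regulators differed in the same direction by small amounts. NFE2L2, which encodes NRF2 (-0.46, uncertain because 20.9% of its exons overlap another gene), its inhibitor KEAP1 (-0.64) and BACH1 (-0.58), a repressor of HMOX1, were each called (adjusted p = 0.035, 0.024 and 0.021). TXNRD1, SRXN1, NQO1, GSR, NFE2L2, KEAP1 and BACH1 were named after their values were seen.

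Several of these calls needed all 6 libraries. HMOX1, GCLC, GCLM, AKR1C3, AKR1B10 and GSR stayed called without any 1 of them. SLC7A11 and SRXN1 each lost the call without DMA library 1, DMA library 2 or C646 library 3, with the highest adjusted p without DMA library 2 (0.075 and 0.084). TXNRD1 was lost without each of the 6 and KEAP1 without each but DMA library 1, up to 0.12 and 0.099 without DMA library 2. NQO1, NFE2L2 and BACH1 were lost without 4 to 6 libraries, with the highest values without C646 library 1 (0.14 and 0.089, for NQO1 and BACH1) and C646 library 3 (0.10, for NFE2L2). With the block, the adjusted p values of these genes ran from 1.8e-06 (GCLC) to 0.011 (NFE2L2).

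Beside solvent, C646 changed 1.21% of all genes (0.812% higher, 0.4% lower) and DMA 1.75% (0.734% higher, 1.02% lower). With the block the shares were 7.86% (4.12% higher, 3.73% lower) and 10.2% (4.76% higher, 5.46% lower). Of the 28 NRF2 targets, 8 were called higher with C646 and 0 with DMA in either direction, with medians of 0.80 and -0.13, and with the block 20 were higher with C646 and 2 lower with DMA. Both comparisons use the same solvent libraries, so the values are given side by side only.

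**Figure D2:**
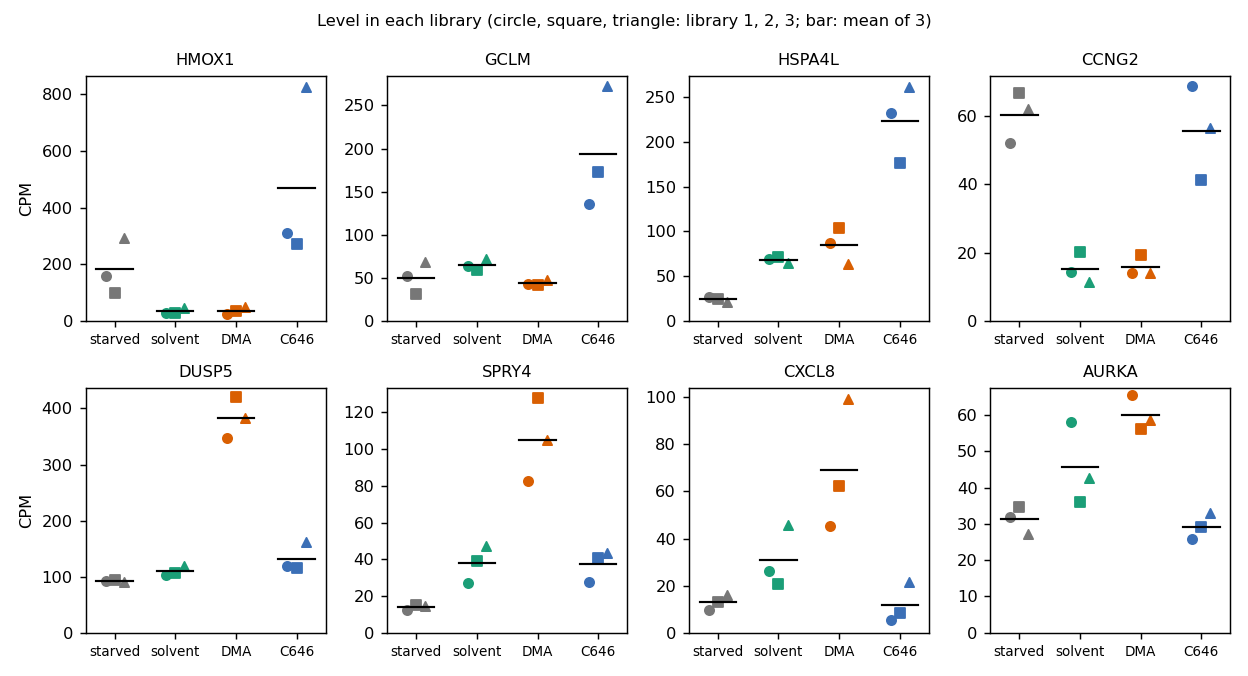
CPM of 8 genes in each of the 12 libraries, with circle, square and triangle for libraries 1, 2 and 3 and a bar for the mean of 3. In the upper row the 3 C646 libraries lie above all DMA libraries, and in the lower row the 3 DMA libraries lie above all C646 libraries; each y axis has its own linear scale from 0.

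Many chaperones of the heat shock response were also higher with C646. Of 22 tested, 14 were called higher with C646 (63.6% against 1.95% of all genes) and 0 higher with DMA. The median difference was -0.74, and 18 lay wholly higher with C646 (11.1% of all genes did). Same-numbered ratios had medians of -0.89, -0.51 and -0.91. Without DMA library 3 only 5 of the 14 calls were left as a count, and 7 to 13 without any other library. With the block 15 were called higher with C646 (5.85% of all genes were), and with spike-in scaling 3, at a median of -0.64.

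HSPA4L (chromosome 4, 127781821 to 127840733), an HSP110-type chaperone partner, measured 87.0, 104 and 63.7 CPM with DMA and 233, 176 and 262 CPM with C646. Its groups did not overlap, and the difference was -1.40 ± 0.18 (adjusted p = 0.0022). The solvent libraries, at 64.3 to 71.2 CPM, were close to the DMA group. DNAJB4, a J-domain co-chaperone, measured 79.4 ± 21.7 CPM with DMA and 193 ± 29 CPM with C646 (-1.28, adjusted p = 0.0051). Its solvent libraries, at 98.4 to 118 CPM, overlapped the DMA group, in which library 2 held 104 CPM. HSPE1, the mitochondrial chaperonin HSP10, measured 141 ± 14.3 and 263 ± 34.7 CPM (-0.90, adjusted p = 0.0051), an uncertain value since another gene overlaps 23.9% of its exons. DNAJA1, whose promoter is shown above, measured 418, 561 and 399 CPM with DMA and 871, 815 and 863 CPM with C646 (-0.89 ± 0.14, adjusted p = 0.0057).

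The inducible HSP70 genes HSPA1A and HSPA1B are near-identical copies, and 73.6% and 74.4% of their sequence recurs in other genes, so their split is uncertain. Summed, the pair reached 429.8, 859.6 and 552 CPM with DMA and 1913, 2714 and 2436 CPM with C646. Every C646 library was above every DMA library and every solvent library (447, 987 and 885 CPM). Singly, HSPA1A differed by -2.34 ± 0.50 (adjusted p = 0.030) and HSPA1B by -1.85 ± 0.33 (adjusted p = 0.013). Their co-chaperone HSPH1 measured 511 ± 169.8 and 1226 ± 259 CPM (-1.26, adjusted p = 0.011). CHORDC1, an HSP90 partner, had one higher DMA library, with 44.5, 93.4 and 41.5 CPM against 135, 152 and 126 CPM (-1.20, adjusted p = 0.040). HSP90AA1, the stress-inducible HSP90, was unlike the others in its solvent level. It measured 1968 ± 365 CPM with DMA, 4058 ± 709 CPM with C646 (-1.04, adjusted p = 0.013, uncertain) and 2882 to 4344 CPM with solvent, so that here DMA was the lower group (-0.95 against solvent, adjusted p = 0.030) and C646 lay near solvent (0.10, adjusted p = 0.85).

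HSPA4L, DNAJB4, HSPE1 and DNAJA1 stayed called without any 1 library. Without DMA library 3 the adjusted p rose to 0.11 for HSPA1A, 0.055 for HSPA1B, 0.051 for HSPH1, 0.053 for HSP90AA1 and 0.12 for CHORDC1. HSPA1A also lost its call without 3 further libraries (DMA 1, C646 1, C646 2), HSP90AA1 without C646 library 1, and CHORDC1 without each library but DMA 2. With the block all of these were called without any 1 library. HSPA1B, HSPH1, HSP90AA1, CHORDC1 and DNAJA1 were named after their values were seen. Beside solvent, 3 of the 22 chaperones were called higher with C646 (0.812% of all genes) and 1 lower with DMA (1.02% of all), with medians of 0.52 and -0.19. With the block these counts were 13 (4.12% of all) and 1 (5.46% of all).

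A few genes of nutrient handling and rest were higher with C646. HKDC1 (chromosome 10, 69220303 to 69267559), a hexokinase-like enzyme, measured 2.06, 2.32 and 4.09 CPM with DMA and 36.6, 25.4 and 31.8 CPM with C646. Solvent libraries held 6.92 to 8.2 CPM, so the DMA libraries were all lower and the C646 libraries all higher than solvent, and both differences passed (-1.38, adjusted p = 0.035, and 2.09, adjusted p = 0.0069). The difference between the inhibitors was -3.47 ± 0.30 (adjusted p = 0.00015). ARRDC3, an arrestin-related protein, measured 32.5 ± 7.77 and 134 ± 45.4 CPM (-2.04, adjusted p = 0.0051). These were the only members called of 27 genes of glycolysis and glucose handling (7.41% against 1.95% of all genes). The median of the list was -0.05, and 0.04 with spike-in scaling. With the block 4 were called higher with C646 (5.85% of all). TXNIP, the glucose-responsive relative of ARRDC3, measured 21.3, 21.1 and 65.5 CPM with DMA and 89.6, 58.7 and 225 CPM with C646. The ranges overlap, as library 3 was the highest of both groups, and the difference of -1.79 passed only with the block (adjusted p = 0.12 without and 0.0019 with it).

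CCNG2, an atypical cyclin of resting cells, measured 13.9, 19.4 and 14.1 CPM with DMA and 69.0, 41.3 and 56.5 CPM with C646 (-1.81 ± 0.23, adjusted p = 0.0022). Its level with C646 was near the mean of 60.5 CPM in starved cells, and its level with DMA near the solvent values of 11.4 to 20.1 CPM. YPEL2, a YPEL family gene, differed in the same direction, with 2.21 to 3.75 CPM in solvent and a mean of 14 CPM in starved cells (3.34 ± 0.963 and 9.01 ± 2.03 CPM, -1.43, adjusted p = 0.014). They were the only 2 called of 28 targets linked to rest and FOXO (7.14% against 1.95% of all genes), a list with a median of 0.01. The block gave 4 higher with C646 (5.85% of all) and 2 higher with DMA (3.96% of all). YPEL2 lost its call without DMA library 3 or C646 library 1 (adjusted p = 0.053 and 0.063).

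Of 20 circadian clock genes, 5 were called higher with C646 (25% against 1.95% of all genes) and 0 higher with DMA, with a median of -0.33. PER2 and PER3, repressors within the clock, measured 4.88 ± 1.5 and 7.79 ± 2.87 CPM with DMA and 12.9 ± 2.80 and 18.4 ± 2.98 CPM with C646 (-1.40 and -1.24, adjusted p = 0.026 and 0.018). The clock repressors NR1D2 (-0.77) and CRY2 (-0.91) and the output factor TEF (-1.55) were also called (adjusted p = 0.026, 0.036 and 0.046), with CRY2 and TEF named after their values were seen. None of the 5 was called without each single library in turn, since PER3 reached 0.072, PER2 0.10, CRY2 0.11 and TEF 0.13 without DMA library 2, and NR1D2 0.11 without C646 library 1. Between 1 and 3 members were called with 1 library left out. With the block 7 were higher with C646 (5.85% of all genes) and 1 higher with DMA (3.96% of all). The median came to -0.21 without DMA library 1 and -0.20 without C646 library 2, and spike-in scaling left 1 call and a median of -0.20.

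Among 30 lysosome and autophagy genes, 4 were called higher with C646 (13.3% against 1.95% of all genes), and the median was -0.11. With spike-in scaling 1 was called and the median was -0.02. GLA, a lysosomal galactosidase, measured 23.6, 24.1 and 27.9 CPM with DMA and 64.1, 48.1 and 79.9 CPM with C646 (-1.34, adjusted p = 0.0026). CTSL, a lysosomal protease, measured 74.6 ± 4.19 and 111 ± 0.980 CPM (-0.58, adjusted p = 0.013). The proton pump subunit ATP6V1A (-0.85, adjusted p = 0.037) and the autophagy receptor SQSTM1 (-1.06, adjusted p = 0.044, uncertain, named after its values were seen) were each lost without 5 libraries, up to an adjusted p of 0.11 without DMA library 1 and 0.12 without DMA library 2. Of 18 genes of metal handling, 3 were called higher with C646 (16.7% against 1.95% of all genes). They were HMOX1, the iron exporter SLC40A1 (-1.46, adjusted p = 0.031) and the ferritin subunit FTL (-0.84, adjusted p = 0.017, uncertain). FTL lost its call without C646 library 1 (0.070), and SLC40A1 without 3 libraries, up to 0.12 without DMA library 2.

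Other genes in the group of largest differences toward C646 have mixed roles. PCLO, a scaffold of synapses, measured 5.63, 4.16 and 1.52 CPM with DMA and 31.8, 16.3 and 35.4 CPM with C646 (-2.88, adjusted p = 0.0040). SLC43A2, an amino acid transporter, measured 4.76 ± 2.10 and 31.1 ± 8.46 CPM (-2.71, adjusted p = 0.0039). Solvent libraries held at most 4.36 CPM of PCLO and 5.48 CPM of SLC43A2, less than any C646 library. ABHD3, a phospholipase (-2.19, adjusted p = 0.00080), PLCD4, a phospholipase C (-2.30, adjusted p = 0.0045), GPER1, a membrane receptor that responds to estrogen (-2.23, adjusted p = 0.0079), and RNF150 (-2.16, adjusted p = 0.0084) stayed called without any 1 library, though RNF150 missed the threshold with the block without 2 of them (up to 0.071). CLIC2 (-2.49, adjusted p = 0.027) lost its call without C646 library 1 or 3 or DMA library 3, up to 0.079. NRG1, a ligand of ERBB receptors, measured 21.1, 20.9 and 15.1 CPM with DMA and 39.6, 40.2 and 38.1 CPM with C646 (-1.04, adjusted p = 0.0060). It was the only member called of 9 EGF receptor ligands and receptors (11.1% against 1.95% of all genes). GBP1, an interferon-induced GTPase, measured 39.4 ± 8.94 and 93.5 ± 10.4 CPM (-1.25, adjusted p = 0.0033), with solvent at 71.5 to 91.6 CPM. For this gene DMA was the group that differed from solvent (-1.03, adjusted p = 0.018).

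**Figure D3:**
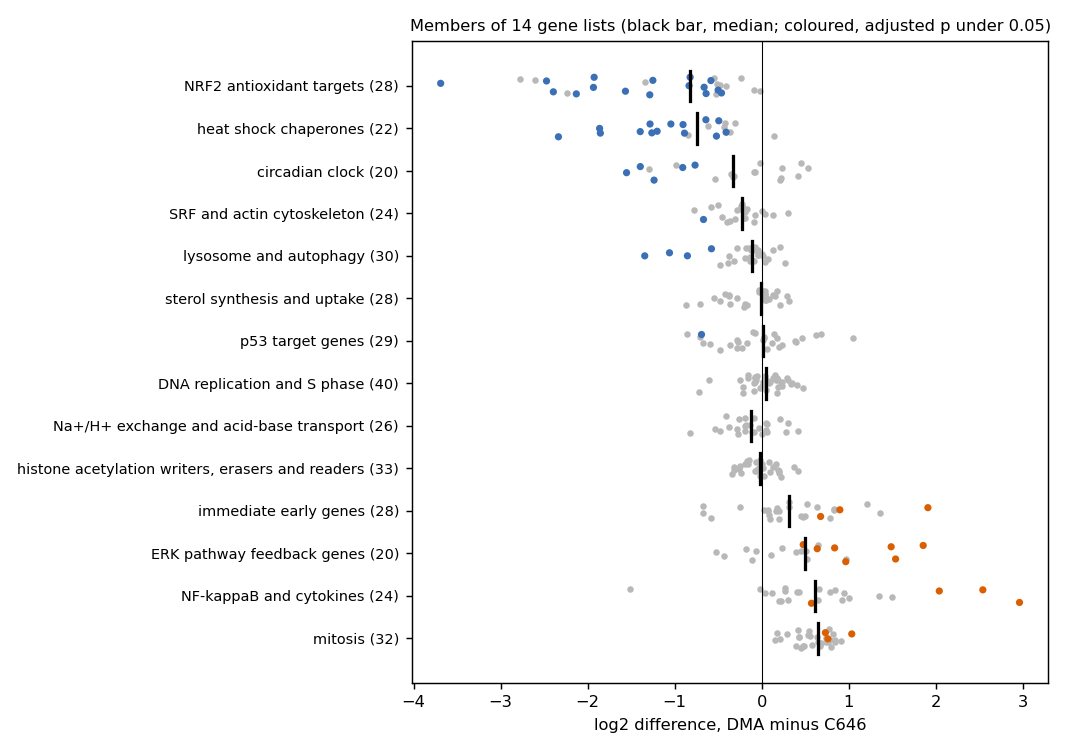
Members of 14 gene lists by their log2 difference, DMA minus C646, on the x axis, with the number tested in brackets. Black bars are medians, blue and orange points were called higher with C646 and with DMA, and grey points were not called; NRF2 targets and chaperones lie to the left of 0, and ERK feedback, cytokine and mitotic genes mostly to the right.

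In the opposite direction, several inhibitors that ERK induces against itself were higher with DMA. Of 20 ERK feedback genes, 7 were called higher with DMA (35% against 0.943% of all genes) and 0 higher with C646, with a median of 0.49 and fitted differences from -0.53 to 1.86, of which 15 were above 0. In same-numbered pairs the median was 0.42, 0.57 and 0.48. With 1 library left out 4 to 7 stayed called as a count, and with the block 11 were called higher with DMA (3.96% of all genes). Spike-in scaling left 3 calls.

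DUSP5 (chromosome 10, 110497838 to 110511544), a nuclear phosphatase of ERK, measured 347, 420.2 and 382 CPM with DMA and 119, 115 and 162 CPM with C646. The groups were far apart, at a difference of 1.54 ± 0.14 (adjusted p = 0.00015). The C646 libraries resembled solvent, at 102 to 119 CPM. SPRY4 and SPRY1, Sprouty inhibitors of receptor signalling to ERK, were both called. SPRY4 measured 82.5, 128 and 105 CPM with DMA and 27.8, 40.9 and 43.6 CPM with C646 (1.49 ± 0.22, adjusted p = 0.0049), and SPRY1 16.1, 25.1 and 21.0 CPM against 6.63, 4.56 and 5.99 CPM (1.86 ± 0.24, adjusted p = 0.0024). ERRFI1, which binds and inhibits the EGF receptor, measured 357 ± 67.4 and 183 ± 5.2 CPM (0.97, adjusted p = 0.0039). These 4 genes stayed called without any 1 library.

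The smaller calls were DUSP7, another ERK phosphatase (0.64, adjusted p = 0.034), SPRED2, an inhibitor of RAS signalling (0.48, adjusted p = 0.042), and PHLDA1 (0.84, adjusted p = 0.044), all named after their values were seen. They were lost without 4 or 5 of the 6 libraries, up to an adjusted p of 0.093 and 0.15 without C646 library 2 for DUSP7 and SPRED2 and 0.16 without C646 library 1 for PHLDA1. DUSP6, the cytoplasmic ERK phosphatase, measured 107, 149 and 174 CPM with DMA and 54.6, 60.8 and 105 CPM with C646, and passed only with the block (0.97, adjusted p = 0.062 and 0.0010); another gene overlaps 40.5% of its exons, so the value is uncertain. DUSP4, named after its values were seen (0.51), also passed only with the block (adjusted p = 0.19 and 0.027). Beside solvent, 6 of the 20 were called higher with DMA (0.734% of all genes) and 0 with C646 in either direction (1.21% of all), with medians of 0.57 and 0.16. With the block 15 were higher with DMA (4.76% of all), and with C646 1 was higher (4.12% of all) and 1 lower (3.73% of all).

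Immediate early genes and related factors gave fewer calls. Of 28 immediate early genes, 3 were called higher with DMA (10.7% against 0.943% of all genes), all of them Krueppel-like factors, and the median was 0.31. KLF6 measured 188, 173 and 183 CPM with DMA and 103, 92.6 and 96.6 CPM with C646 (0.90, adjusted p = 0.014), without overlap. KLF10 (0.68, adjusted p = 0.041) and KLF2 (1.91, adjusted p = 0.047) were lost without 5 libraries each, up to 0.15 without DMA library 3 and 0.16 without C646 library 2, and KLF6 without C646 library 2 (0.055). The groups of KLF10 lay close in library 1, with 89.0 CPM in DMA library 1, 138 and 143 CPM in the others and at most 78.7 CPM with C646. The classical members did not all follow. EGR1 measured 23.8, 32.1 and 47.1 CPM with DMA and 11.9, 15.9 and 16.7 CPM with C646 and passed only with the block (1.21, adjusted p = 0.11 and 0.011). JUN, part of the AP-1 factor and named after its values were seen, measured 132 to 133 CPM with DMA and 67.7, 88.9 and 75.0 CPM with C646 (0.78, adjusted p = 0.055 and 0.012). FOS was low in both groups at 3.92 ± 1.10 and 3.41 ± 0.669 CPM (0.20, adjusted p = 0.84). With the block, 8 immediate early genes were higher with DMA (3.96% of all genes) and 2 higher with C646 (5.85% of all).

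Cytokine genes held some of the largest differences toward DMA. Of 24 genes of NF-kappaB signalling and cytokines, 4 were called higher with DMA (16.7% against 0.943% of all genes). The median was 0.61, but 0.36 without DMA library 3 and 0.40 without C646 library 2. CXCL8 (chromosome 4, 73740506 to 73743716), interleukin-8, which attracts neutrophils, measured 45.2, 62.2 and 99.3 CPM with DMA and 5.47, 8.35 and 21.8 CPM with C646. The lowest DMA library held more than the highest C646 library, and the difference was 2.54 ± 0.48 (adjusted p = 0.018). Solvent, at 20.8 to 45.6 CPM, overlapped both groups, and neither inhibitor passed against it (1.16 and -1.38, adjusted p = 0.19 and 0.17). CSF2, the growth factor GM-CSF, measured 19.0, 10.7 and 8.84 CPM with DMA and 3.32, 1.17 and 0.411 CPM with C646 (2.96 ± 0.53, adjusted p = 0.012). IL1B, interleukin-1 beta, measured 49.1, 38.8 and 93.0 CPM with DMA and 16.2, 9.23 and 18.5 CPM with C646 (2.04 ± 0.43, adjusted p = 0.027), with solvent at 26.5 to 61.7 CPM. LIF, a cytokine of the interleukin-6 family, was named after its values were seen and measured 587 ± 34.3 and 395 ± 38.6 CPM (0.57, adjusted p = 0.036).

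Several cytokine calls depended on single libraries. Without C646 library 2 none of the 24 was called, and CSF2, CXCL8 and IL1B had adjusted p values of 0.054, 0.074 and 0.099. CXCL8 was also lost without DMA library 3 or C646 library 1, and IL1B without DMA library 3 or C646 library 1 or 3. LIF was lost without each of the 6, up to 0.12 without C646 library 1. With the block 9 members were higher with DMA (3.96% of all genes) and 1 higher with C646 (5.85% of all). CSF2, CXCL8 and IL1B then had adjusted p values of 0.00087, 0.00012 and 1.2e-05. Spike-in scaling gave 4 higher with DMA and 1 higher with C646 (53 and 67 of all genes). Beside solvent the list had medians of 0.28 with DMA and -0.15 with C646. With DMA 0 members were called in either direction (1.75% of all genes), and with C646 2 were lower (0.4% of all). The block gave 5 higher and 1 lower with DMA (4.76% and 5.46% of all), and 1 higher and 5 lower with C646 (4.12% and 3.73%).

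The rest of the largest differences toward DMA were spread over receptors, ligands and factors. PLXNA2, a semaphorin receptor, measured 134, 68.4 and 59.0 CPM with DMA and 17.7, 12.6 and 7.45 CPM with C646 (2.78 ± 0.45, adjusted p = 0.0084). MTSS1, an actin-binding membrane protein, measured 14.2 ± 3.32 and 2.57 ± 1.04 CPM (2.47, adjusted p = 0.0032). For both genes solvent lay between the groups, at 30.8 to 42.7 and 5.50 to 9.22 CPM. HIVEP3, a zinc finger factor, was even across libraries, with 30.2, 29.3 and 30.2 CPM against 8.66, 6.98 and 9.0 CPM (1.86 ± 0.17, adjusted p = 0.00018). C12orf66 (1.59, adjusted p = 0.0022) and MB21D2 (1.61, adjusted p = 0.0068) were also called without any 1 library. In MB21D2 the DMA libraries spanned the solvent range (12.9 ± 3.79 CPM against 10.5 to 14.8 CPM) and C646 was the lower group (-1.52 against solvent, adjusted p = 0.017). PDGFB, a subunit of platelet-derived growth factor (2.00, adjusted p = 0.024), and CYP26B1, which degrades retinoic acid (1.94, adjusted p = 0.014), were lost without 4 and 3 libraries, up to 0.083 and 0.059 without C646 library 2.

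In the TGF-beta and BMP list 2 of 28 genes were called higher with DMA (7.14% against 0.943% of all genes), with a median of 0.06. With the block 5 were higher with DMA (3.96% of all) and 2 higher with C646 (5.85% of all). SMAD3, which carries the TGF-beta signal to the nucleus, measured 222, 262 and 359 CPM with DMA and 132, 89.2 and 118 CPM with C646 (1.31, adjusted p = 0.014). Its solvent libraries, at 209 to 309 CPM, overlapped the DMA range. BMP2, a ligand of the family, measured 24.4 ± 6.41 and 9.39 ± 2.26 CPM (1.38, adjusted p = 0.012). Both missed the threshold without C646 library 2 (0.057 and 0.051), and SMAD3 also without DMA library 3.

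Of 32 mitotic genes 3 were called higher with DMA (9.38% against 0.943% of all genes), 8 with the block (3.96% of all) and 0 with spike-in scaling. All 32 fitted differences were above 0, with a median of 0.64, and 26 lay wholly higher with DMA (10.5% of all genes did). AURKA, the kinase of the spindle poles, measured 65.5, 56.0 and 58.5 CPM with DMA and 25.7, 29.2 and 32.9 CPM with C646 (1.04 ± 0.17, adjusted p = 0.0076), and stayed called without any 1 library, but not with spike-in scaling (adjusted p = 0.12). CCNB2, a cyclin of mitosis, measured 32.8 ± 2.09 and 19.7 ± 5.48 CPM (0.73, adjusted p = 0.042), and PRC1, which bundles the microtubules of the spindle, 106 ± 13.4 and 62.8 ± 10.4 CPM (0.76, adjusted p = 0.045, uncertain because 58.4% of its exons overlap another gene). Those calls ended without 5 and all 6 of the libraries in turn, up to 0.13 and 0.17 without C646 library 1. The same-numbered medians of the list were 0.98, 0.39 and 0.34. Beside solvent the list had medians of -0.01 with DMA and -0.63 with C646. With DMA 0 members were called in either direction (1.75% of all genes) and with C646 1 was lower (0.4% of all). With the block 0 were called with DMA (10.2% of all) and 8 were lower with C646 (3.73% of all). Of the promoters of 25 of these genes, 18 (72%) held the CCAAT box against 35.2% of all. It stood in 43.4% of the genes called higher with DMA and in 35.6% of those called higher with C646. Most genes of this list were not called, and shares of the other motifs searched are not given for it.

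**Figure D4:**
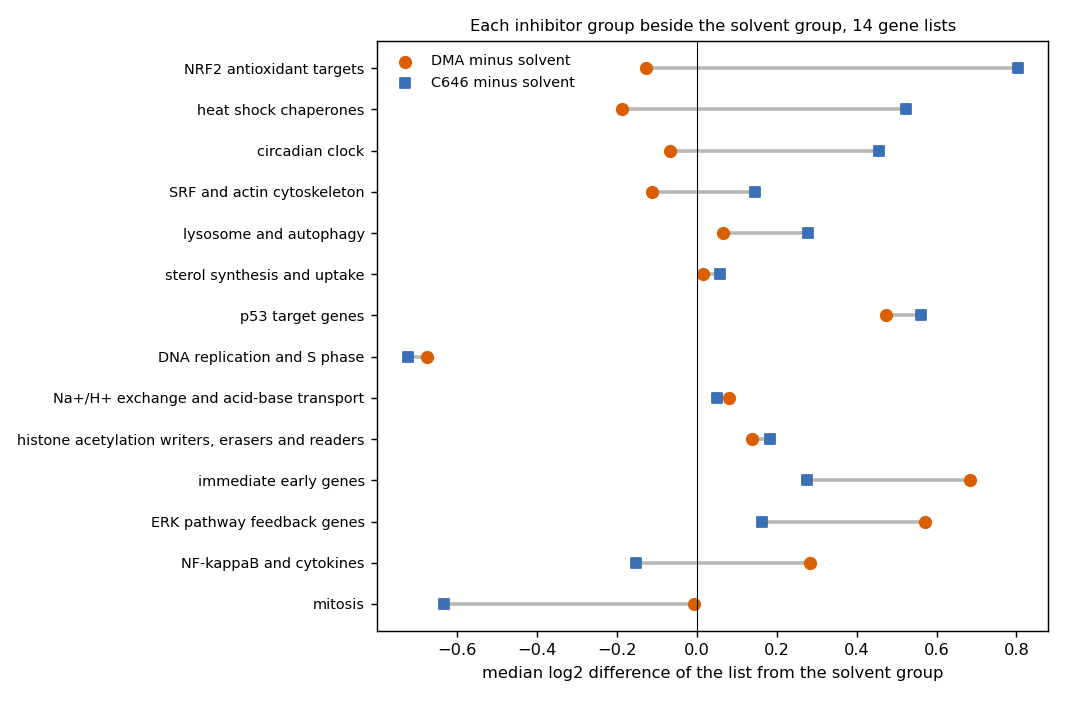
Median log2 difference of 14 gene lists from the solvent group, for DMA (orange circles) and C646 (blue squares), which share the solvent libraries. The NRF2 and chaperone medians lie at 0.80 and 0.52 for C646 and at -0.13 and -0.19 for DMA, whereas for p53 targets and DNA replication genes both inhibitors lie on one side of 0.

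Genes of the cell cycle before mitosis gave almost no calls between the inhibitors. Of 40 DNA replication genes edgeR called 0, with a median of 0.05. An unadjusted p under 0.05 was found for 2 (2651 of all 15263 genes), and DESeq2 called 1 (1044 of all). Wholly higher with DMA were 4 (10.5% of all genes), and wholly higher with C646 was 1 (11.1% of all). Each inhibitor's median against solvent was -0.68 (DMA) and -0.72 (C646). Of 27 regulators of G1, only E2F5, a repressor of the E2F family, was called (3.70% against 0.943% of all genes). It measured 18.7 ± 1.08 CPM with DMA and 9.40 ± 1.18 CPM with C646 (0.99, adjusted p = 0.0060). The G1 cyclins CCND1 and CCNE1 measured 905 ± 314 against 968 ± 326 CPM (-0.10 ± 0.28) and 2.28 ± 0.746 against 2.84 ± 0.605 CPM (-0.32 ± 0.36), and neither passed (adjusted p = 0.91 and 0.73). The same held for the phosphatase CDC25A (0.24 ± 0.31, adjusted p = 0.77), the factor E2F1 (-0.25 ± 0.27, adjusted p = 0.72) and the factor MYC (0.17 ± 0.26, adjusted p = 0.81). The sign of these small values was not stable: without C646 library 3 MYC came to -0.07, and CCND1 came to 0.04 without DMA library 2, 0.04 without DMA library 3 and 0.17 without C646 library 1. CCNE1 came to 0.01 with the block without DMA library 1.

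Of 29 p53 targets 1 was called, higher with C646 (3.45% against 1.95% of all genes). This was the death receptor FAS (-0.70, adjusted p = 0.035), with 131 ± 14.4 CPM with DMA and 213 ± 56.3 CPM with C646. It was lost without 4 libraries, up to 0.13 without C646 library 1. With the block 5 p53 targets were higher with C646 (5.85% of all genes) and 2 higher with DMA (3.96% of all). The kinase inhibitor CDKN1A measured 1089, 958 and 929 CPM with DMA and 1457, 948 and 1220.1 CPM with C646, overlapping ranges whose difference did not pass (-0.28 ± 0.21, adjusted p = 0.56). Both groups were above all solvent libraries, which held 335 to 529 CPM. The p53 list had medians of 0.47 with DMA and 0.56 with C646 against solvent, and 0.01 between the inhibitors. Against solvent 5 members were called higher in each (0.734% of all genes with DMA and 0.812% with C646). With the block 14 and 13 were called higher (4.76% and 4.12% of all).

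The genes for the acetyltransferases that C646 inhibits did not pass. EP300 and CREBBP, which encode p300 and CBP, measured 119.8 ± 8.94 and 83.7 ± 16.6 CPM with DMA and 103 ± 10.5 and 82.8 ± 10.5 CPM with C646 (0.22 ± 0.12 and 0.02 ± 0.17, adjusted p = 0.37 and 0.98). Leaving out DMA library 1, DMA library 2 or C646 library 3 turned the value of CREBBP to -0.03, -0.10 and -0.08. Of 33 genes of histone acetylation and 26 of Na+/H+ exchange and acid-base transport, 0 were called in either direction. Their medians were -0.02 and -0.13, and 1 member of each was called with the block (9.81% of all genes were). An unadjusted p under 0.05 was reached by 3 and 2 of them (2651 of all 15263 genes), and DESeq2 called 1 in each (1044 of all). The members called with the block were the deacetylase HDAC2 (0.37, adjusted p = 0.041 with the block) and the exchanger SLC9B2 (0.42, adjusted p = 0.033 with the block). Transcript levels say nothing of the activity of these proteins.

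Without the block, no member was called in the lists of the unfolded protein response, sterol or fatty acid synthesis, oxidative phosphorylation, mitochondrially encoded genes, cytosolic ribosomal proteins, tRNA synthetases, the proteasome, YAP targets, the MYC network, polyamine synthesis, histones or small nucleolar RNA hosts. Their medians lay between -0.13 and 0.19. Together with DNA replication, histone acetylation and acid-base transport these were 16 lists with 403 genes tested. Of the 403, 49 had an unadjusted p under 0.05 in edgeR (2651 of all 15263 genes did), and DESeq2 called 13 (1044 of all). With the block 5 of them were higher with DMA (3.96% of all genes) and 9 higher with C646 (5.85%). In a list of splicing factors and splicing kinases, 1 of 26 was higher in each group (3.85%, against 0.943% and 1.95% of all genes). These were HNRNPDL with DMA (0.73, adjusted p = 0.032) and SRSF6 with C646 (-0.62, adjusted p = 0.043). With the block 5 and 1 were called (3.96% and 5.85% of all). Of 33 genes of ribosome biogenesis 6.06% were called higher with DMA (0.943% of all genes) and 3.03% higher with C646 (1.95% of all). With the block 4 were higher with DMA (3.96% of all) and 2 higher with C646 (5.85% of all). DKC1 and NOLC1, factors of RNA modification and nucleolar assembly, were higher with DMA (0.49 and 0.43, adjusted p = 0.025 and 0.039). UBTF, a factor of RNA polymerase I, was higher with C646 (-0.50, adjusted p = 0.031). These 5 calls ended without 4 to 6 libraries, and the adjusted p without C646 library 1 was 0.13 for HNRNPDL, 0.14 for SRSF6, 0.16 for NOLC1 and 0.12 for UBTF, while that of DKC1 was 0.095 without DMA library 3.

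The 7SK RNA gene RN7SK, transcribed by RNA polymerase III, had 107, 90.8 and 12.2 CPM with DMA and 15, 14.4 and 10.3 CPM with C646. DMA libraries 1 and 2 were high, while DMA library 3 lay within the C646 range. The call (2.40, adjusted p = 0.041) ended with the block (adjusted p = 0.063) and without 5 of the libraries, up to 0.16 without C646 library 3. RN7SL2, a signal recognition particle RNA of the same polymerase, showed the same split, with 242, 144 and 22.4 CPM against 36.6, 24.7 and 18.7 CPM (2.35, adjusted p = 0.055). All of the sequence of RN7SK and 94.8% of that of RN7SL2 recurs in other genes. The libraries were made from polyadenylated RNA, and whether this split in the DMA libraries touches other results was not tested beyond leaving out each library.

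Of the 552 ZNF zinc finger genes 429 were tested, and 6 were called higher with C646 (1.40% against 1.95% of all genes) and 0 higher with DMA. Their median was -0.08, and 0.01 with spike-in scaling. With the block 25 of the 429 were higher with C646 (5.85% of all genes were) and 7 higher with DMA (3.96% of all). ZNF627 was the one with the smallest adjusted p, at 12.8 ± 0.327 CPM with DMA and 24.3 ± 3.85 CPM with C646 (-0.92, adjusted p = 0.011).

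The genes called in the 2 directions differed in build. Those higher with C646 had a median genomic span of 45.9 kb and 10 exons, against 30.0 kb and 8 exons for all genes tested, and those higher with DMA 22.8 kb and 8 exons. Genes under 10 kb made up 14.1% of the first, 29.2% of the second and 23.8% of all. Protein-coding genes made up 96.0% and 92.4% of the called genes against 85.7% of all, and long noncoding RNAs 3.70% and 5.56% against 13%. The called genes were also more abundant, with a median mean log2 CPM of 4.83 and 5.32 against 4.28 for all. Whether level accounts for these shares was not tested. These are descriptions over genes, which are not independent replicates. Chromosome 4 held the highest share of genes called higher with C646, with 26 of 569 (4.57%).

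Genes that refeeding itself changed were met in both directions. The comparison of solvent with starved cells, in which 24.3% of genes were called (12.6% higher, 11.7% lower), sets no inhibitor library against another, though its spread and filter come from the fit of all 12. Among 1921 genes called higher after refeeding, 41 were higher with DMA (2.13%) and 77 higher with C646 (4.01%). Of 1783 genes called lower after refeeding, 18 and 41 were called (1.01% and 2.30%), and of 11559 genes called in neither direction, 85 and 179 (0.74% and 1.55%). Across 11161 genes the 2 differences had a Pearson r of 0.036 and a Spearman rho of 0.032, a description over genes of the same 12-library fit.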

How the data were processed

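Polyadenylated RNA of 12 RPE-1 libraries, 4 groups of 3, was sequenced from stranded libraries. Reads were trimmed with Trimmomatic 0.36 and aligned with STAR 2.7.0e to GRCh38.p10, per the submitters' processing notes. The deposited tables hold estimated counts and TPM per transcript, per the file headers. The quantifier is not named, and whether it used strand is not given in the sources used here; antisense and overlapping genes are therefore uncertain. The word uncertain marks genes sharing more than 20% of their exon length, or of their 31-base words, with another gene.

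Expected counts of 182164 transcripts were summed per gene (GENCODE 29) and rounded; 92 spike-ins and 264 unmatched transcripts (0.0923% to 0.146% of counts) were left out. Genes passed edgeR's filterByExpr (minimum count 10, total 15). All 12 libraries entered 1 robust quasi-likelihood fit (edgeR 4.0.16, R 4.3.3) with TMM scaling and no block, two-sided, with p-values adjusted by Benjamini-Hochberg over 15263 genes at a threshold of 0.05. DESeq2 1.42.0, other scalings and filters, the replicate block and leaving out each library were the alternatives. Log2 differences are fitted; CPM are scaled by TMM library size. A floor of 3 counts was 0.104 to 0.201 CPM.

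Same-numbered DMA and C646 libraries deviated together from their group means (r = 0.52, 0.29 and 0.59 over 10966 genes), so the numbers, taken from the labels, were treated as pairs and the blocked fit is given beside results whose call or count it moves. On simulated counts the fit recovered 78% of 2-fold and 99% of 4-fold changes, with 6 false calls among 14971 genes. Those counts were drawn independently for each library, without an effect of the library number, and only genes above a minimum level were changed. The rates therefore do not describe the real libraries, whose same-numbered members deviated together.

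Named genes were the 12 largest called differences in each direction whose groups did not overlap and whose mean log2 CPM reached 2, a fixed panel, and up to 3 called members of each list in each direction, or the 2 with the smallest p where none passed; others are said to be named after their values were seen. Members and lists were chosen with earlier results of these data known.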

Additional observations from a re-analysis of the deposited data

How the results depend on the processing

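The count of 441 genes between DMA and C646 became 1044 with DESeq2, 120 with spike-in scaling, 140 in a fit of the 6 libraries alone, and 185 at 2-fold or more. The replicate block gave 1498, 1629 with the 6 libraries alone and 1951 in DESeq2. Leaving out 1 library gave 180 to 316 genes, and with the block 953, 849 and 499 without DMA library 1, 2 and 3 and 679, 749 and 853 without C646 library 1, 2 and 3. Of 91 named calls, DESeq2 kept all, spike-in scaling lost 50, the fit of 6 libraries 45 and the block 1 (RN7SK), and 36 stayed called without any 1 library. No named call changed sign. Among genes that did not pass, CREBBP (0.02; -0.10 to 0.16 without 1 library) became -0.00025 without a filter, -0.033, -0.10 and -0.081 without DMA library 1, DMA library 2 and C646 library 3, and, with the block, -0.098, -0.0048, -0.017 and -0.019 without 1 library. CCND1 (-0.10; -0.42 to 0.17 without 1 library) became 0.045, 0.036 and 0.17 without DMA library 2, DMA library 3 and C646 library 1, and 0.071 with the block without C646 library 2. CCNE1 became 0.012 with the block without DMA library 1, and MYC -0.072 without C646 library 3 (up to 0.38 without C646 library 1).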
